A study of Glycine max with 8 samples.

Results

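Pathogenesis-related protein genes of the PR1 and PR10 families and the genes for the defence regulator NPR1 were followed in nodules of soybean (Glycine max). The 8 genes were chosen by name as defence markers, by a rule that uses no value from these libraries. Earlier results of these data were nevertheless known when the genes were chosen. They make up 8 of the 43517 genes counted. The list holds 3 PR10 genes of the SAM22 type, Glyma.07G243500.Wm82.a2.v1, Glyma.17G030300.Wm82.a2.v1 and Glyma.17G030400.Wm82.a2.v1. It also holds 3 PR1 genes, Glyma.15G062400.Wm82.a2.v1, Glyma.15G062500.Wm82.a2.v1 and Glyma.13G251600.Wm82.a2.v1, and 2 NPR1 copies, Glyma.09G020800.Wm82.a2.v1 and Glyma.15G127200.Wm82.a2.v1. The ending .Wm82.a2.v1, the same for all genes, is left out from here on. The family names are those of the list. Neither deposited file pairs identifiers with names, and 0 of the 43517 identifiers matched the reference gene table of assembly Glycine_max_v4.0, so the names were not checked by sequence.

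Nodules are root organs in which legumes house nitrogen-fixing rhizobia. The study held plants at low nitrogen and compared 2 inoculations. Plants of group BR received the strain labelled Bac.B together with the strain labelled Bra.Q2, and plants of group R received Bra.Q2 alone. Both groups therefore share low nitrogen and Bra.Q2, and no uninoculated or high-nitrogen libraries were analysed here. Each group held 4 nodule libraries, BR1 to BR4 and R1 to R4, with library totals of 15133989 to 17287964 counts for BR, against 14223489 to 15266510 for R. Whether the 4 libraries of a treatment stand for different plants is not stated, so every p-value rests on library-to-library spread that may be technical. The labels give no soybean cultivar, plant age or time after inoculation. The nodule label was not checked against marker genes, because the identifiers of such genes are not paired with names.

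PR1 proteins are small secreted proteins whose transcripts are a classic readout of salicylic acid signalling in plants. PR10 proteins are small proteins of the Bet v 1 fold that stay inside the cell, and the soybean gene SAM22 was described as a message induced by starvation and stress. NPR1 is known from Arabidopsis as a salicylic acid receptor and a coactivator that works with TGA transcription factors to switch on PR genes. Defence genes are of interest in nodules because the plant there tolerates dense populations of living bacteria.

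No member passed the test for a difference between BR and R. Of the 7 members with enough reads to be tested, 0 were called higher and 0 lower in BR in edgeR's quasi-likelihood test, at p below 0.05 after Benjamini-Hochberg adjustment. Of all 29508 tested genes 18.3% were called, 7.98% higher and 10.3% lower. At an unadjusted p below 0.05 the count was 3 of 7 (34.1% of all tested genes), all 3 with lower means in BR (18.8% of all tested genes): the PR10 gene Glyma.17G030300, the PR1 gene Glyma.15G062400 and the NPR1 copy Glyma.15G127200. DESeq2 called 2 of the 7, Glyma.17G030300 and Glyma.15G062400 (24.4% of all genes, 13.4% with a lower value in BR), and limma-voom called 0 (18.1%). The log2 fold change of BR over R was below 0 in 5 of the 7, against 51.2% of all tested genes. Its median over the 7 was -0.38, against -0.02 over all tested genes. In none of the 8 members did all BR libraries lie on one side of all R libraries, a separation seen in 24.5% of tested genes. Relative to the TMM scaling used here, scaling by total counts alone moved the median over all genes to 0.18. Less transcript per cell and fewer cells expressing a gene cannot be told apart in these whole-nodule libraries.

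**Figure D1:**
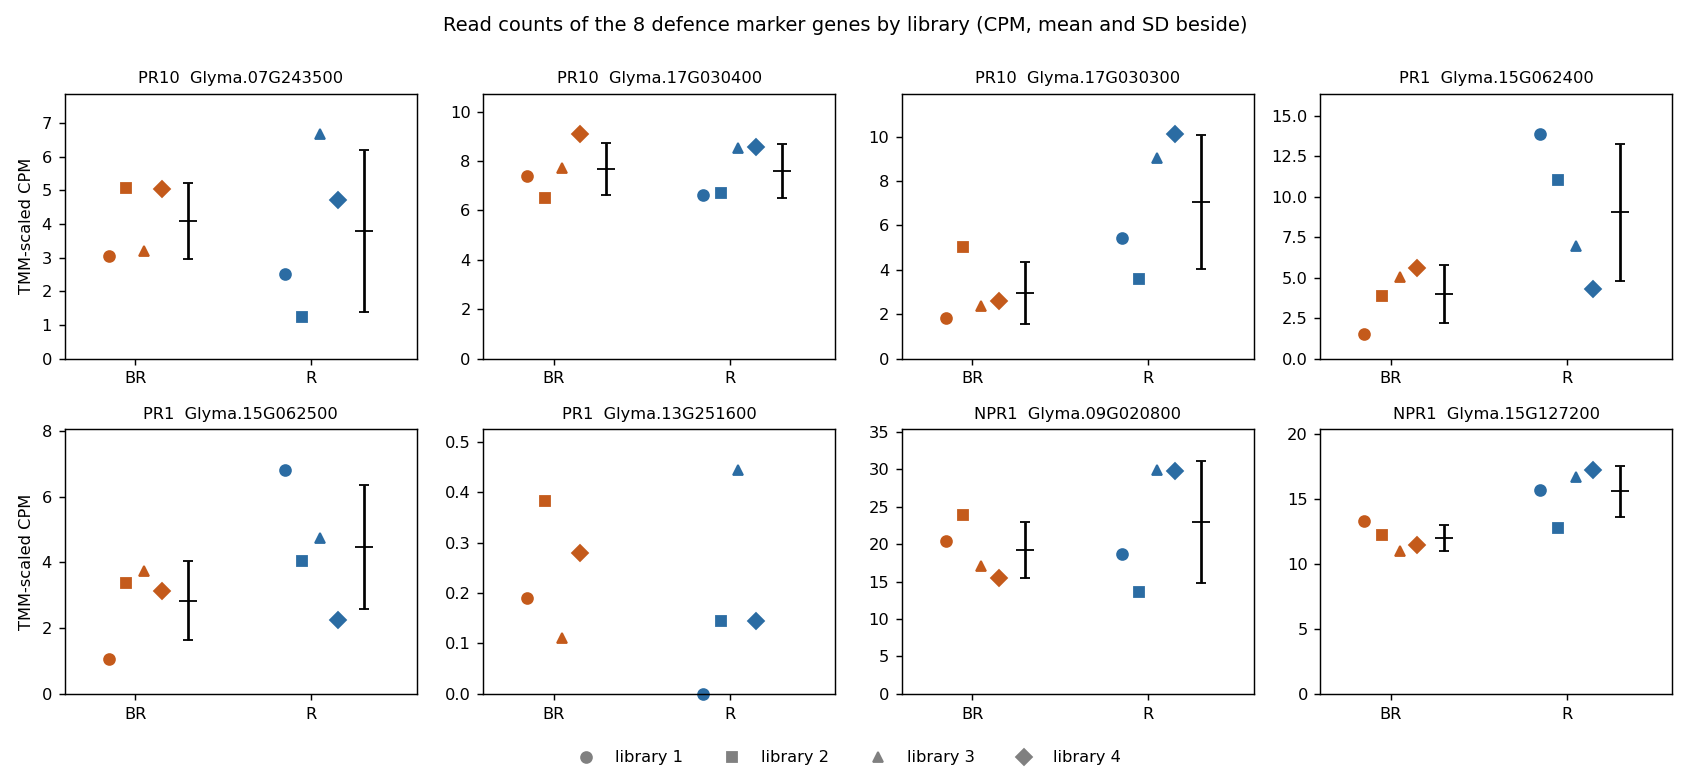
TMM-scaled CPM (y axis, linear from 0) of the 8 members in each library. BR libraries stand left of R libraries, marker shapes give the replicate number, and the black bars give mean and SD of 4 libraries, except for Glyma.13G251600, which was not tested. The groups overlap in all 8 members, and the 4 R libraries are spread widely in Glyma.07G243500, Glyma.17G030300, Glyma.15G062400, Glyma.15G062500 and Glyma.09G020800.

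On the deposited FPKM scale, which divides by gene length and allows levels of different genes to be compared, 7 of the members had moderate levels in nodules and 1 was close to undetected. The order of the mean level over all 8 libraries began with Glyma.17G030400 (PR10) at 7.94 FPKM, Glyma.15G062400 (PR1) at 6.999 and Glyma.09G020800 (NPR1) at 6.67. It went on with Glyma.17G030300 (PR10) at 5.44, Glyma.15G127200 (NPR1) at 4.76, Glyma.07G243500 (PR10) at 4.32 and Glyma.15G062500 (PR1) at 4.26. Neighbours among these 7 in the order differed by less than the larger of their SDs within R. For comparison, the median of this mean level over all tested genes was 4.65 FPKM, and 24.4% of all genes in the table stood above Glyma.17G030400. Glyma.13G251600 (PR1) came last at 0.269 FPKM, with 71.1% of all genes above it. The gene lengths implied by the deposited files were 3144 and 2872 bases for the NPR1 copies and 797 to 964 bases for the 6 PR genes.

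Levels were also summed over the members of each family. The 3 PR10 members together reached 13.6, 18.9, 15.5 and 19.1 FPKM in BR1 to BR4, against 14.3, 11.5, 24.9 and 23.8 FPKM in R1 to R4. The 3 PR1 members together reached 3.33, 9.28, 11.05 and 11.0 FPKM in BR1 to BR4, against 21.3, 16.0, 13.1 and 7.10 FPKM in R1 to R4. The 2 NPR1 copies together reached 11.6, 12.6, 10.1 and 9.57 FPKM in BR1 to BR4, against 10.4, 8.21, 14.5 and 14.5 FPKM in R1 to R4. All 3 families overlapped between the groups. Within R, the PR10 and NPR1 sums were highest in R3 and R4, whereas the PR1 sum was highest in R1 and R2.

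The NPR1 copies gave the most reads of all members and are also the longest, at 3144 and 2872 bases. Per length they had 6.67 and 4.76 FPKM, both below the PR10 gene Glyma.17G030400 at 7.94 FPKM. Whether NPR1 regulates the other members in nodules was not tested. Glyma.09G020800 had 322, 437, 309 and 276 counts in BR1 to BR4, against 260, 189, 404 and 409 in R1 to R4. Scaled by TMM to CPM, the counts relative to a common effective library size, these were 20.4, 23.9, 17.1 and 15.5 CPM in BR, against 18.7, 13.6, 29.9 and 29.8 CPM in R. The BR libraries thus lay inside the range of the R libraries, which split into a low pair (R1, R2) and a high pair (R3, R4). The means were 19.2 ± 3.73 CPM in BR and 23.0 ± 8.16 CPM in R (SD, n = 4 each). The log2 fold change of BR over R was -0.26 (SE 0.26, 95% interval -0.83 to 0.31; adjusted p = 0.506 in edgeR). Without R2 it was -0.44, without BR4 -0.17, without R3 -0.12 and without R4 -0.097. The fits without R1 and R2 together and without R3 and R4 together were chosen with the values of these libraries known. They are therefore given here and for the other members as descriptions without a p, and their calls are only counted in the closing section. They do not enter the ranges of adjusted p over the alternatives. For Glyma.09G020800 they gave -0.62 without R1 and R2 and 0.27 without R3 and R4, on opposite sides of 0.

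The other NPR1 copy, Glyma.15G127200, had the smallest SD of log2 CPM of the tested members within each group. It had 13.3, 12.2, 10.98 and 11.5 CPM in BR1 to BR4, against 15.7, 12.8, 16.7 and 17.2 CPM in R1 to R4. Only R2, at 12.8 CPM, reached into the BR range, below BR1. The means were 12.0 ± 1.00 CPM in BR and 15.6 ± 1.98 CPM in R (SD, n = 4 each), which gives -0.38 as log2 fold change (SE 0.14, 95% interval -0.70 to -0.06; unadjusted p = 0.0250, adjusted p = 0.0938 in edgeR). This interval spans folds of 0.617 to 0.961. Without R2 the log2 fold change was -0.46 (adjusted p = 0.0427 in edgeR). Leaving out any other single library gave no call, with adjusted p from 0.1001 without BR1 to 0.2405 without R4 in edgeR. Without R3 and R4 together the log2 fold change was -0.22. Over all alternatives apart from the fits without a pair of R libraries, the adjusted p lay between 0.0427 (edgeR without R2) and 0.476 (limma on log2(FPKM + 0.1)). Scaling by total counts, which moved the median of all genes upward in BR, gave a log2 fold change of -0.18.

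The PR1 genes Glyma.15G062400 and Glyma.15G062500 are adjacent in identifier order on chromosome 15. The reference table lists 4 symbols of PR1 type on that chromosome and 5 on chromosome 13, but which symbol belongs to which identifier was not settled here. Glyma.15G062400 had 24, 71, 91 and 100 counts in BR1 to BR4, against 193, 153, 94 and 59 in R1 to R4. These were 1.52, 3.88, 5.02 and 5.60 CPM in BR, against 13.9, 11.04, 6.96 and 4.29 CPM in R. R4 lay among the BR libraries and the other R libraries lay above all of BR, while BR1 was the lowest library of all. The means were 4.004 ± 1.81 CPM in BR and 9.04 ± 4.25 CPM in R (SD, n = 4 each). The log2 fold change was -1.17 (SE 0.43, 95% interval -2.13 to -0.21; unadjusted p = 0.0215, adjusted p = 0.0849 in edgeR). DESeq2 gave an adjusted p of 0.0401. In edgeR the value was -0.47 without R1 and R2 and -1.61 without R3 and R4. Over all alternatives apart from the fits without these pairs of R libraries, the adjusted p lay between 0.0401 (DESeq2) and 0.2055 (edgeR without R1).

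Glyma.15G062500 followed its neighbour at a lower level. It had 1.07, 3.38, 3.75 and 3.14 CPM in BR1 to BR4, against 6.82, 4.04, 4.74 and 2.26 CPM in R1 to R4. BR1 was again the lowest library and R1 the highest, and R4 again lay within the BR range. The means were 2.84 ± 1.20 CPM in BR and 4.47 ± 1.89 CPM in R (SD, n = 4 each), which gives -0.65 as log2 fold change (SE 0.41, 95% interval -1.57 to 0.27; adjusted p = 0.296 in edgeR). Without R1 the value was -0.35 and without BR1 it was -0.38. It was -0.28 without R1 and R2 and -0.91 without R3 and R4. When the reads of both neighbours were summed, so that reads fitting both copies could not be split between them, the log2 fold change was -0.98 (SE 0.41; adjusted p = 0.121 in edgeR).

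The PR1 gene Glyma.13G251600, on chromosome 13, was barely detected. It had 3, 7, 2 and 5 counts in BR1 to BR4, against 0, 2, 6 and 2 in R1 to R4, and it did not pass the filter on low counts. The 0 in R1 allows up to 0.215 CPM or 0.247 FPKM (3 counts of that library). Summed over libraries the level was 0.242 CPM in BR, with an exact Poisson 95% interval of 0.141 to 0.388, and 0.182 CPM in R, with an interval of 0.0871 to 0.334. These intervals cover counting error only and overlap. Fitted without the filter, its log2 fold change was 0.40 (adjusted p = 0.787 in edgeR). The SE of this value was 0.84, so at this depth no difference between the groups was detected and even a large one could have been missed.

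The PR10 gene Glyma.17G030300 had the lowest adjusted p of all members. It had 29, 92, 43 and 46 counts in BR1 to BR4, against 76, 50, 122 and 139 in R1 to R4. These were 1.83, 5.02, 2.37 and 2.58 CPM in BR, against 5.46, 3.61, 9.04 and 10.1 CPM in R. BR2 lay above R2 and was the only BR library to reach the R range. The means were 2.95 ± 1.42 CPM in BR and 7.05 ± 3.04 CPM in R (SD, n = 4 each). The log2 fold change was -1.25 (SE 0.39, 95% interval -2.12 to -0.38; unadjusted p = 0.00951, adjusted p = 0.0511 in edgeR), just outside the threshold. Without BR2 it was -1.64 (adjusted p = 0.0231 in edgeR), and without R2 -1.46 (adjusted p = 0.0163). Leaving out any other single library gave no call, with adjusted p from 0.0674 without R1 to 0.136 without R4 in edgeR. The log2 fold change was -1.68 without R1 and R2 and -0.59 without R3 and R4. DESeq2 gave an adjusted p of 0.0162, the lowest over all alternatives apart from the fits without these pairs of R libraries. The highest was 0.136, in edgeR without R4.

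The gene beside it, Glyma.17G030400, had nearly equal means in both groups. It had 7.40, 6.50, 7.72 and 9.07 CPM in BR1 to BR4, against 6.61, 6.71, 8.52 and 8.58 CPM in R1 to R4. The means were 7.67 ± 1.07 CPM in BR and 7.61 ± 1.09 CPM in R (SD, n = 4 each), which gives 0.01 as log2 fold change (SE 0.17; adjusted p = 0.965 in edgeR). Its 95% interval ran from -0.37 to 0.40, or folds of 0.773 to 1.32. With total-count scaling the value was 0.21, beside a median of 0.18 over all genes under that scaling.

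The PR10 gene on chromosome 7, Glyma.07G243500, varied most among the R libraries. The reference table places the symbol PR-10, with the synonym SAM22, on that chromosome and the symbol PR10, with the synonym GmPR10, on chromosome 9. Neither lies on chromosome 17, where the other PR10 members are, and which identifier either symbol belongs to was not settled here. The gene had 48, 93, 58 and 90 counts in BR1 to BR4, against 35, 17, 90 and 65 in R1 to R4. These were 3.03, 5.08, 3.20 and 5.04 CPM in BR, against 2.51, 1.23, 6.67 and 4.73 CPM in R. R3 was the highest and R2 the lowest library, with all of BR between them. The means were 4.09 ± 1.12 CPM in BR and 3.78 ± 2.41 CPM in R (SD, n = 4 each), which gives 0.11 as log2 fold change (SE 0.44; adjusted p = 0.881 in edgeR). The interval of -0.87 to 1.10 is wide. Leaving out BR2, BR4, R1 or R2 alone turned the sign, and without R3 the value was 0.53. It was -0.46 without R1 and R2 and 1.15 without R3 and R4.

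**Figure D2:**
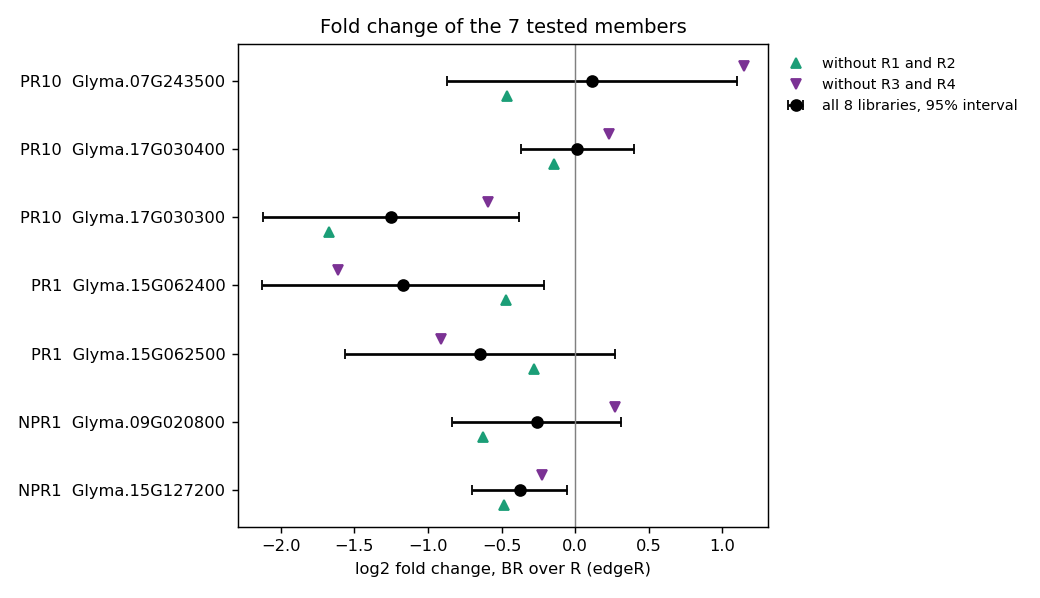
Log2 fold change of BR over R (x axis) for the 7 tested members. Black circles and bars give the edgeR value with its 95% interval from all 8 libraries, and triangles give the value without R1 and R2 (pointing up) and without R3 and R4 (pointing down). The interval lies wholly below 0 for Glyma.17G030300, Glyma.15G062400 and Glyma.15G127200, none of which passed after adjustment over all genes, and the triangles lie on opposite sides of 0 for Glyma.07G243500, Glyma.17G030400 and Glyma.09G020800.

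The spread among the R libraries differed greatly between members. The SD of log2 CPM within R was 1.02 for Glyma.07G243500, larger than in 93.5% of all tested genes. It was 0.74 for Glyma.15G062400, 0.67 for Glyma.17G030300, 0.64 for Glyma.15G062500 and 0.55 for Glyma.09G020800, against a median of 0.33 over all tested genes. Glyma.17G030400 and Glyma.15G127200 were below that median, at 0.20 and 0.19. Within BR the SD was highest for the PR1 neighbours, at 0.82 for Glyma.15G062400 and 0.79 for Glyma.15G062500, and above that of 96.3% and 95.7% of tested genes. In both, BR1 was the lowest BR library. For 5 of the 7 tested members the SD was larger in R than in BR, as it was in 64.3% of all tested genes.

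Counting error alone would give a variance equal to the mean count. The ratio of the variance among R libraries to that value was 39.9 for Glyma.09G020800, 27.5 for Glyma.15G062400, 21.0 for Glyma.07G243500, 18.1 for Glyma.17G030300 and 11.04 for Glyma.15G062500. It was 2.16 for Glyma.17G030400 and 3.48 for Glyma.15G127200. This ratio grows with the number of reads as well as with the spread, so it does not rank the genes by spread.

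The order of the R libraries was alike in most members. R1 and R2 both lay below R3 and R4 in 5 of the 7 tested members, the 3 PR10 genes and both NPR1 copies. They both lay above R3 and R4 in 1, the PR1 gene Glyma.15G062400, and the PR1 gene Glyma.15G062500 followed neither order. This grouping of the R libraries was chosen after the values had been seen, and it is common in these libraries: 31.6% of all tested genes had R1 and R2 below the other R libraries and 30.9% had them above. The highest R library had 5.43 times the CPM of the lowest for Glyma.07G243500, 3.23 times for Glyma.15G062400, 3.03 times for Glyma.15G062500, 2.80 times for Glyma.17G030300 and 2.19 times for Glyma.09G020800. For Glyma.17G030400 the ratio was 1.30, and for Glyma.15G127200 it was 1.35.

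**Figure D3:**
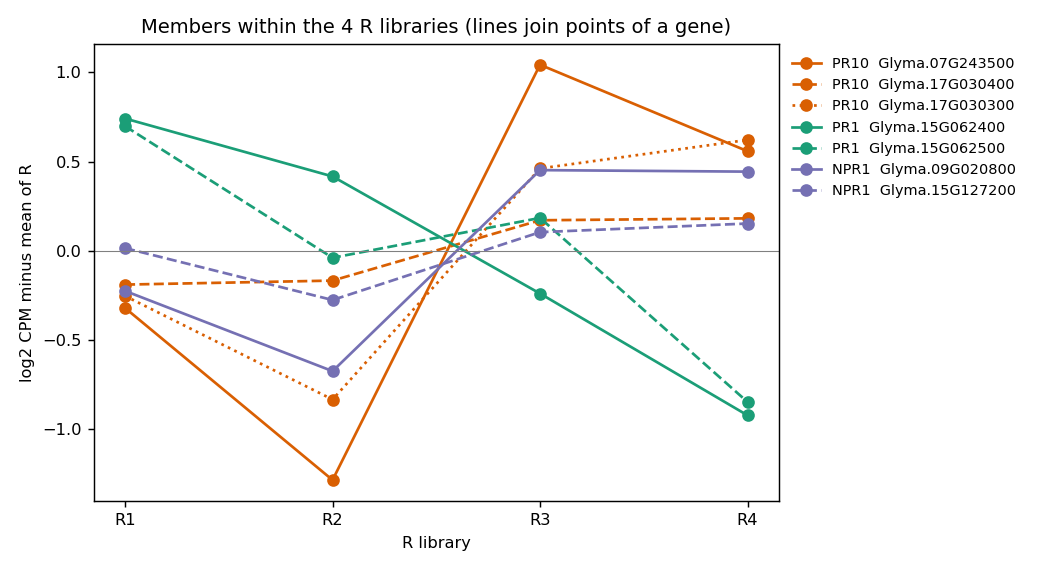
Log2 CPM minus the mean of the 4 R libraries (y axis) for the 7 tested members in R1 to R4 (x axis). Colours give the family and lines only join the points of a gene. The PR10 and NPR1 members sit below 0 or near it in R1 and R2 and above 0 in R3 and R4, and the PR1 members lie highest in R1.

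The share of the reads taken by each copy of a pair was also followed across libraries. In the PR10 pair on chromosome 17, Glyma.17G030300 took 19.9%, 43.6%, 23.5% and 22.1% of the reads of both copies in BR1 to BR4, against 45.2%, 34.97%, 51.5% and 54.1% in R1 to R4. The means were 27.3% ± 10.99 in BR and 46.4% ± 8.504 in R (SD, n = 4 each). Of the BR libraries, BR2 alone reached the R range. The exact binomial 95% interval was 36.8% to 50.6% in BR2 and 16.7% to 28.4% in BR4, so these libraries of 1 group differed by more than counting error. Summed over both copies the log2 fold change was -0.46 (SE 0.21; adjusted p = 0.144 in edgeR).

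In the PR1 pair, Glyma.15G062400 took 58.5%, 53.4%, 57.2% and 64.1% of the reads of both copies in BR1 to BR4, against 67.0%, 73.2%, 59.5% and 65.6% in R1 to R4. The means were 58.3% ± 4.44 in BR and 66.3% ± 5.63 in R (SD, n = 4 each), and the groups overlapped. In the NPR1 pair, Glyma.09G020800 took 60.5%, 66.1%, 60.8% and 57.4% in BR1 to BR4, against 54.4%, 51.6%, 64.2% and 63.3% in R1 to R4. The means were 61.2% ± 3.62 in BR and 58.4% ± 6.32 in R (SD, n = 4 each), and the groups overlapped. For the summed reads of the NPR1 copies the fit gave -0.31 as log2 fold change (SE 0.20; adjusted p = 0.308 in edgeR). No source used here says how reads that fit several copies were counted, which leaves the split between similar copies uncertain. Differences between copies were not tested.

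**Figure D4:**
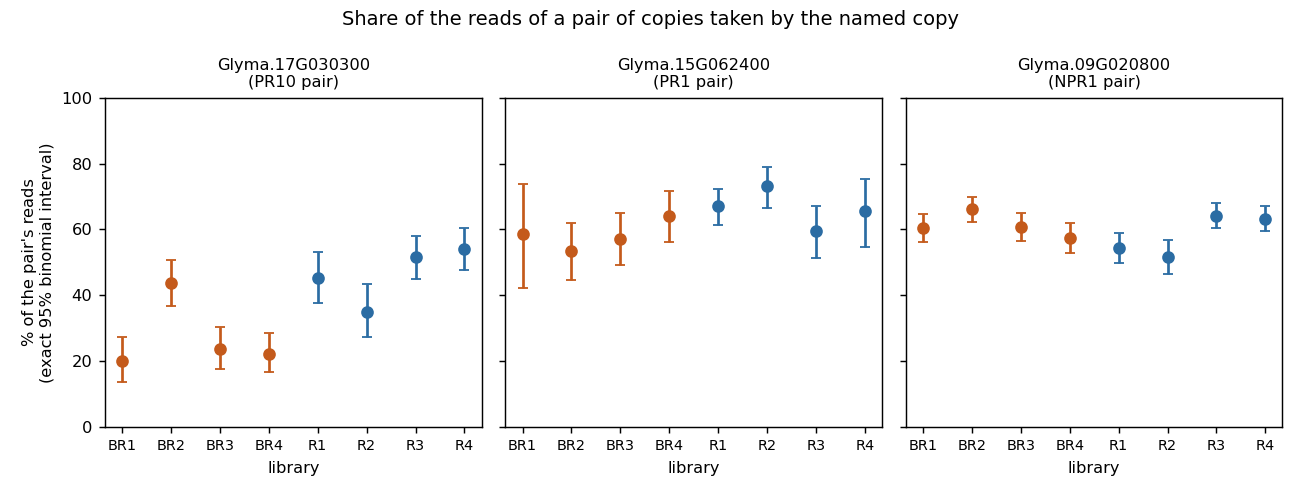
Percent of the reads of a pair of copies taken by the copy named above each panel (y axis, 0 to 100) in BR1 to BR4 (left, orange) and R1 to R4 (right, blue), with exact binomial 95% intervals that cover counting error only. In the PR10 pair BR1, BR3 and BR4 lie at 19.9% to 23.5% and BR2 lies at 43.6%, among the R libraries; the PR1 and NPR1 pairs stay between 51.6% and 73.2%.

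The neighbours of the members in identifier order were examined next, up to 5 on each side. Of 60 distinct neighbours that are no members, 39 were tested, 2 were called higher and 2 lower in BR. That is a smaller share than over all tested genes, of which 18.3% were called, 7.98% higher and 10.3% lower, so the called neighbours are described as single genes and not as a feature of the members' surroundings. One of the lower genes stood beside the PR10 pair. Glyma.17G030200, with a length of 947 bases, had 9.99, 24.1, 13.4 and 15.5 CPM in BR1 to BR4, against 28.1, 19.1, 55.9 and 45.6 CPM in R1 to R4. Its log2 fold change was -1.24 (SE 0.36; adjusted p = 0.0383 in edgeR), beside -1.25 for Glyma.17G030300 next to it. In both genes BR2 was the highest BR library and R2 the lowest R library, and the groups overlapped there. The files do not name this gene, and whether it shares reads with the PR10 pair was not tested.

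The other 3 called neighbours lay on chromosomes 7 and 15. Glyma.07G243000, at 5 places before the PR10 gene of chromosome 7, rose in BR. It had 23.3, 14.6, 14.7 and 16.97 CPM in BR1 to BR4, against 6.97, 5.27, 6.07 and 5.67 CPM in R1 to R4 (log2 fold change 1.53, SE 0.19; adjusted p = 0.00178, edgeR). Next to the NPR1 copy Glyma.15G127200, Glyma.15G127300 rose by 0.92 on the log2 scale (SE 0.24; adjusted p = 0.0282 in edgeR). Glyma.15G127700, at 4 places after that copy, fell by 0.69 on the log2 scale (SE 0.19; adjusted p = 0.0349 in edgeR). In these 3 genes the groups did not overlap, as in 24.5% of all tested genes. Around the PR1 genes of chromosomes 15 and 13, and around the NPR1 copy of chromosome 9, no neighbour was called. Few were tested there, members among them: 6 of 10 for Glyma.15G062400, 7 of 10 for Glyma.15G062500, 3 of 10 for Glyma.13G251600 and 6 of 10 for Glyma.09G020800.

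**Figure D5:**
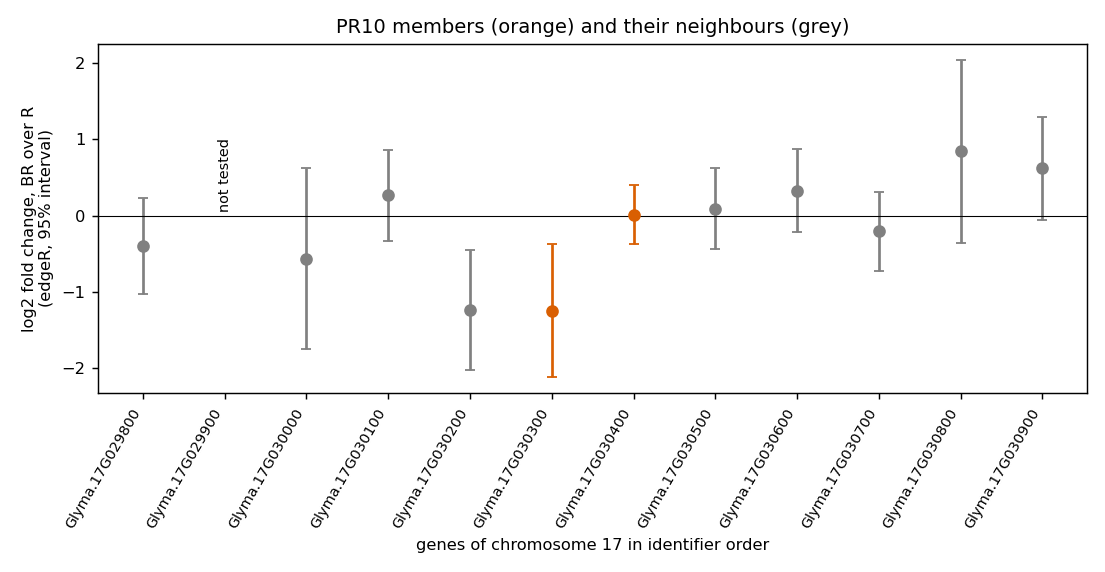
Log2 fold change of BR over R with its edgeR 95% interval (y axis) for genes of chromosome 17 in identifier order (x axis). The PR10 members are orange and their neighbours grey, and 1 gene had too few reads to be tested. Glyma.17G030200 (-1.24) and Glyma.17G030300 (-1.25) lie side by side below 0, and Glyma.17G030400 lies at 0.01.

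The genes most alike in pattern were sought for the most abundant member of each family, over log2 CPM of the 8 libraries and 19391 genes averaging 5 CPM or more. For the PR10 gene Glyma.17G030400 the nearest was Glyma.03G177700, with Pearson r = 0.98 over the 8 libraries, and the 3 nearest had r between 0.95 and 0.98. For the PR1 gene Glyma.15G062400 it was Glyma.07G084400 (r = 0.99), and the 3 nearest had r between 0.97 and 0.99. For the NPR1 copy Glyma.09G020800 it was Glyma.08G254200 (r = 0.99), and the 3 nearest had r between 0.98 and 0.99. Each was picked for the highest r among 19391 genes, so these values are descriptions only. Pearson r also takes no account of the size of a change. Glyma.07G084400 ran from 27.3 CPM in BR1 to 37.7 CPM in R1, against 1.52 and 13.9 CPM for Glyma.15G062400. None of the genes named here as nearest was called between BR and R, against 18.3% of all tested genes. They were picked for likeness to members that were not called, so this adds nothing about them. Among the members, Glyma.15G062500 had r = 0.92 with its neighbour Glyma.15G062400, whereas Glyma.09G020800 had r = -0.30 with it. With the PR10 genes, Glyma.09G020800 had r = 0.74 for Glyma.17G030300, 0.72 for Glyma.07G243500 and 0.28 for Glyma.17G030400. It had r = 0.71 with the other NPR1 copy, Glyma.15G127200, and r = -0.14 with the PR1 gene Glyma.15G062500.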

How the data were processed

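RNA of soybean nodules was extracted with Trizol and made into libraries with a VAHTS Universal V6 kit, per the labels' protocols. The authors deposited raw read counts per gene for 43517 genes. They also deposited FPKM for 39910 genes, which equal those counts divided by library total and a fixed gene length. Per the submitters' processing notes, which give no roles, the tools were HTSeq 0.6.0, TopHat2, HISAT2 2.1.0, Bowtie2 2.2.3 and CASAVA. The ending .Wm82.a2.v1 of the deposited identifiers names the gene annotation and its assembly version; no other source used here gives the build. Strandedness is not given, and overlapping genes cannot be told apart.

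Counts of all genes were fitted in R 4.3.3 with edgeR 4.0.16 after filterByExpr (29508 genes kept), with TMM factors of 0.913 to 1.10 and its quasi-likelihood test with treatment as the only term. Benjamini-Hochberg adjustment ran over all tested genes, and an adjusted p below 0.05 was called. SEs were derived from the fold change and its F statistic. CPM use TMM-scaled totals, and SDs use log2 CPM with a prior count of 2. Alternatives used DESeq2 1.42.0, limma 3.58.1, other scalings, filters, libraries and FPKM. The scripts were tested on simulated data.

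Members and lists were chosen with earlier results of these data known. All 8 members are named, with called neighbours within 5 places. The rule for like genes gave 3 for each family, of which the nearest is named. The 13 gene lists by description could not be joined to the identifiers and were not applied. Sequences were not used here. Any pair of libraries within a group differed beyond counting noise (chi-square per degree of freedom at least 6.76 in BR and 11.7 in R), so all 8 were kept.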

Additional observations from a re-analysis of the deposited data

Results flagged for a closer look

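In each group of 4 libraries the member levels, the shares within pairs of copies and the family sums were searched for a library far from the other 3, in 28 groups, of which chance gives about 1 in 20. One was found. In BR2 the PR10 gene Glyma.17G030300 took 43.6% of the reads of the pair with Glyma.17G030400, where the other BR libraries had 19.9% to 23.5%.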

How the results depend on the processing

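Leaving out 1 library gave log2 fold changes of -0.17 to 0.53 for Glyma.07G243500, -0.078 to 0.095 for Glyma.17G030400, -1.64 to -1.01 for Glyma.17G030300, -1.38 to -0.87 for Glyma.15G062400, -0.85 to -0.35 for Glyma.15G062500, -0.44 to -0.10 for Glyma.09G020800 and -0.46 to -0.31 for Glyma.15G127200, with 0 to 2 members called lower and 0 called higher. Glyma.17G030300 was called without BR2 and without R2, and Glyma.15G127200 without R2. Over all genes, 2503 were called lower without BR2 and 3870 without R2, against 3054 (10.3%) with all 8 libraries. The 2 pairs of R libraries left out next were chosen with their values known, so these calls are no evidence of a difference. Without R1 and R2 together, 3 members were called lower, Glyma.17G030300 (-1.68), Glyma.09G020800 (-0.62) and Glyma.15G127200 (-0.49). Calls also rose over all genes in that fit, to 5077 lower, against 3054 with all 8 libraries. The signs of Glyma.07G243500 (-0.46) and Glyma.17G030400 (-0.14) turned there. Without R3 and R4, 1 was called lower, Glyma.15G062400 (-1.61), beside 1903 called lower over all genes, and Glyma.09G020800 turned to 0.27. DESeq2 called 2, Glyma.17G030300 (-1.25) and Glyma.15G062400 (-1.16), where it called 24.4% of all genes, 13.4% with a lower value in BR. The causes were not tested. Over all 21 settings Glyma.15G062500 kept its sign and was not called. Under RLE, upper-quartile and total-count scaling, voom, FPKM and both other filters no member was called and no sign turned. The replicate block gave log2 fold changes of 0.27 for Glyma.07G243500, -1.27 for Glyma.17G030300, -1.14 for Glyma.15G062400 and -0.37 for Glyma.15G127200, none called; libraries with the same number deviated from their group means with correlations of 0.07, 0.09, -0.08 and 0.09, so the numbers were not taken as pairs. Over all genes, 2355 were called higher and 3054 lower in BR; leaving out 1 library gave 1282 to 3463 and 1539 to 3870, total counts 4291 and 1739, log2(FPKM + 1) gave 4417 and 1464, log2(FPKM + 0.1) 4358 and 1512, and log2(FPKM + 1) 4314 and 1664 where genes averaged at least 1 FPKM. Without R1 and R2 there were 5160 and 5077, and without R3 and R4 1903 lower. The SD of log2 CPM within R was 0.38 to 0.79 for Glyma.15G062500 and 0.0699 to 0.235 for Glyma.15G127200 without 1 R library. Depth limits Glyma.13G251600, with 17 counts in BR and 10 in R.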
